A study of Mus musculus with 2 samples.

Results

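The 32 genes described here encode proteins that carry a cell through mitosis: cyclins and Cdk1, mitotic kinases, spindle checkpoint and kinetochore proteins, spindle motors and the cytokinesis machinery. They were taken from a fixed list by symbol, current or older, and each gene was represented by the probe set with the highest mean intensity among those that the platform annotation assigns to that gene alone. Such a probe set existed for 31 of the 32, out of 18193 genes with one; Ccnb1, encoding cyclin B1, had none in the annotation used and is not analysed here. The 31 genes had 60 probe sets in all. RNA came from mouse fetal liver cells of the C57BL/6J strain at E15.5 (days of embryonic development), sorted for Mac-1 (CD11b) and F4/80, which mark macrophages. One Affymetrix GeneChip array was hybridised for wild-type embryos (c-Maf+/+) and 1 for c-Maf KO embryos (c-Maf-/-), which lack the transcription factor c-Maf, encoded by Maf. The comparison of these 2 arrays asks which macrophage genes are lower without c-Maf. How many embryos were pooled for an array, and which part of Maf was deleted, was not stated in the material available here.

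Mitotic genes are transcribed in waves. In resting and early cycling cells their promoters are held silent by the DREAM complex, and in late cycle the MuvB core of that complex joins B-Myb and FoxM1 to activate them. Both forms bind a short element called the cell cycle genes homology region (CHR), often downstream of CCAAT boxes that bind NF-Y. Because their transcripts are degraded or silenced when a cell stops dividing, these genes are widely read as a measure of how many cells in a sample are in the later part of the cycle. Fetal liver macrophages divide, and so do the erythroblasts and progenitors that surround them in the fetal liver.

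The promoter windows of 6 of these genes are shown, and the window of Nuf2 holds 0 of the shared elements. The 6 are Cenpe and Nuf2, which had the lowest ratios described below, Ccnb2 and Kif4, which had the highest, and Cdk1 and Mki67. Cdk1 is the central kinase and Mki67 the usual proliferation marker. All 6 genes were chosen after the ratios were seen. Each window runs from 250 bases before to 50 bases after the annotated start, 5′ to 3′ on the gene's strand, from the RefSeq annotation of build GRCm38.p6. The Cenpe window lies at chr3:135212313-135212612 on the plus strand, that of Nuf2 at chr1:169531415-169531714 (minus), that of Ccnb2 at chr9:70421505-70421804 (minus), that of Kif4 at chrX:100625815-100626114 (plus), that of Cdk1 at chr10:69352863-69353162 (minus) and that of Mki67 at chr7:135716330-135716629 (minus). Capitals mark the CHR letters TTTGAA or TTTAAA and the CCAAT box, on either strand.
Cenpe: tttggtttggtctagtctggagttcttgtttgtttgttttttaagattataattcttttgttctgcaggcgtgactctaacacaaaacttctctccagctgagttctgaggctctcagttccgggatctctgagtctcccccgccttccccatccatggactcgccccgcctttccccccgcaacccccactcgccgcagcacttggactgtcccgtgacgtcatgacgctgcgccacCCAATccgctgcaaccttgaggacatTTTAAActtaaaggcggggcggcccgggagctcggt
Nuf2: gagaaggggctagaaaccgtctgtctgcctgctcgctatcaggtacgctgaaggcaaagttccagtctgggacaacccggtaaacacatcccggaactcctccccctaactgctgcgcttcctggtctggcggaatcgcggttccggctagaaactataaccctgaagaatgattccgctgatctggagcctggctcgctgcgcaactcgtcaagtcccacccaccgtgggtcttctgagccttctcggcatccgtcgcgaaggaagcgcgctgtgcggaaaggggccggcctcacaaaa
Ccnb2: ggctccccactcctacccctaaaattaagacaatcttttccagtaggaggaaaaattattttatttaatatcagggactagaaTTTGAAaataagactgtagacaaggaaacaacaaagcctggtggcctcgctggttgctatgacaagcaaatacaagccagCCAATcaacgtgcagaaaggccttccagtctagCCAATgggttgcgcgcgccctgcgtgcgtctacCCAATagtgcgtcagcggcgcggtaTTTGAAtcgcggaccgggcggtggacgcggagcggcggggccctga
Kif4: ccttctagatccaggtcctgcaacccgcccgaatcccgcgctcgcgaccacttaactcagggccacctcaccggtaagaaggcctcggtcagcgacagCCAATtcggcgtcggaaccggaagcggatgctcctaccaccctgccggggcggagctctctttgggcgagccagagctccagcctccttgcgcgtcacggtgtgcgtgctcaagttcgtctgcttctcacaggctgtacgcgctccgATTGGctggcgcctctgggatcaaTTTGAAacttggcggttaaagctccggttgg
Cdk1: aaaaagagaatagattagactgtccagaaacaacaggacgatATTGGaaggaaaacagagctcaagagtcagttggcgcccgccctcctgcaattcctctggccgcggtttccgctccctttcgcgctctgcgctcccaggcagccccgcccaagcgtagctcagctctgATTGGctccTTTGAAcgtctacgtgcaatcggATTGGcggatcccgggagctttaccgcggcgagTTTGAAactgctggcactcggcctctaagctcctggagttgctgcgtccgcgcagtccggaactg
Mki67: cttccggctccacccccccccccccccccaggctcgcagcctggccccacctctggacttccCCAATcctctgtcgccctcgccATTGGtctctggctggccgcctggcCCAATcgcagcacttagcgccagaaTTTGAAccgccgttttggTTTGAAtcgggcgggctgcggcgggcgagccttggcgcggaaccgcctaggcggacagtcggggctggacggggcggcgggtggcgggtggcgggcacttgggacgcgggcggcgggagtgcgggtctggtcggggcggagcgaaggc

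Promoter windows were available for 28 of the 32 genes; those of Ccna2, Aurkb, Tpx2 and Kif20a are named only. TTTGAA, searched on both strands, was present in 20 of the 28 genes (71.4%), against 17.9% of all 32851 promoter windows of the same length. TTTAAA, which reads the same on both strands, was present in 7 of the 28 (25%), against 13.2% of all windows. At least 1 of these CHR forms was found in 23 of the 28, or 82.1%, against 27.6%. Within 50 bases on either side of the start the count was 21 of 28 (75%), against 8.28%. The CCAAT box occurred in 22 of 28 (78.6%), against 37.4%, and 16 of the 28 (57.1%) held at least 2, against 11.7%. Ect2 and Prc1 have 2 overlapping windows each, and a gene was counted once if either held a match. Counted in this way over all 27025 genes, the shares were 20.2% for TTTGAA, 14.9% for TTTAAA and 30.6% for either form. They were 9.54% for either form within 50 bases of the start, 41.1% for the CCAAT box and 13.3% for at least 2 of these. E2F letters were searched as TTCCCGC (which lies within TTTCCCGC) and TTTGGCGC on both strands. They were in 0 of the 28 genes, in 5.06% of all windows and in 5.79% of all genes. They were in 18 of 31 replication genes (58.1%) and in 9 of 47 further mitotic genes (19.1%), lists that are described below. At least 1 CHR form was in 31 of those 47 (66.0%) and in 9 of those 31 (29.0%). The CCAAT box was in 34 of those 47 (72.3%) and in 22 of those 31 (71.0%). A match describes letters in a window and not a bound site.

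**Figure D1:**
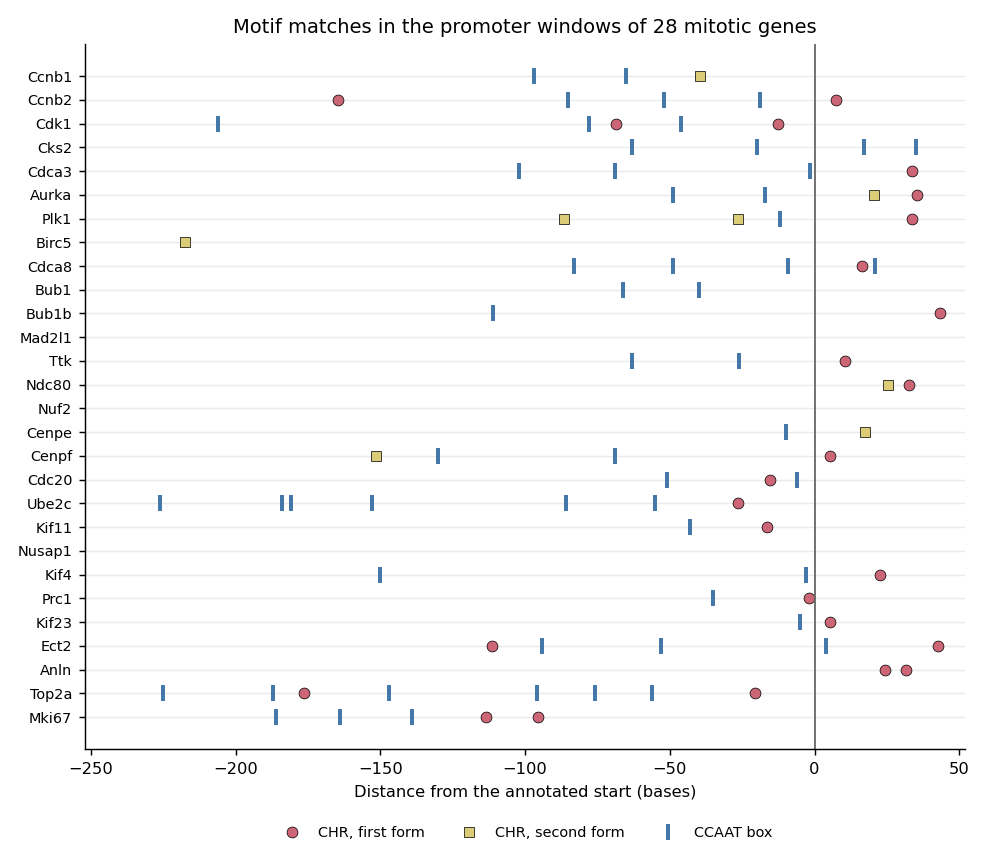
Positions of motif matches in the promoter windows of 28 mitotic genes, in bases from the annotated start (0 line), 1 row per gene; circles are TTTGAA and squares TTTAAA, the 2 forms of the CHR, and vertical ticks are CCAAT boxes; for Ect2 and Prc1 1 of 2 windows is drawn. Most circles sit close to the start, 21 of 28 genes hold a CHR form within 50 bases of it, and the rows of Mad2l1, Nuf2 and Nusap1 are empty.

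All 31 genes were above the floor on both arrays. The floor is the 50th percentile of all values, 3.70 on the deposited scale and 3.75 after level adjustment, and a value below it is not treated as measured. The knockout array was dimmer as a whole: its median over all 45101 probe sets was 2.98, against 4.73 on the wild-type array, and the median deposited log2 ratio of genes above the floor on both arrays was -0.93. The 18 hybridisation control probe sets did not share this shift (median log2 ratio 0.24), and neither did 24 poly-A control probe sets (0.48). Changes are therefore given relative to it, as level-adjusted log2 ratios of c-Maf KO over wild type after quantile normalization, a step that gives the 2 arrays one common distribution of intensities. Maf went from 47.6 to 0.219, which is at least 8.51-fold lower once level-adjusted, although where its probes lie relative to the deletion is not known here. Without replicate arrays there is no test, standard error or p-value. The only yardstick is the spread of level-adjusted ratios within genes that have several bright probe sets. Bright means a mean deposited intensity no lower than 14.8, and the spread of dimmer probe sets was not estimated. The pooled SD was 0.66 over 3448 probe sets in 1430 genes, and 0.64 over 20 probe sets in 10 of the mitotic genes. Both arrays are shared by all probe sets, so this spread leaves out variation between embryos, sorts and arrays.

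In deposited intensity, 29 of the 31 mitotic genes were lower on the knockout array, against 84.2% of all 13479 genes measured on that scale. Of the 31, 20 were at least 2-fold lower, where 39.8% of all genes were, and 0 were at least 2-fold higher, where 1.19% were. Their median log2 ratio as deposited was -1.50, against -0.79 over all genes. Much of this distance went with intensity. Among the 5085 genes with a mean intensity of at least 4 times the floor, 62.1% were at least 2-fold lower as deposited, with a median of -1.22. Of the 30 mitotic genes that reached this intensity, 20 (66.7%) were at least 2-fold lower, with a median of -1.50. After level adjustment few genes passed 2-fold. Cenpe alone of the 31 was at least 2-fold lower, where 9.05% of 13290 genes were, and Ccnb2 and Kif4 were at least 2-fold higher, where 8.34% were. The other 28 were within 2-fold. At 1.5-fold, 7 genes were lower (21.0% of all genes) and 7 higher (21.2%), and at 3-fold 0 were lower (2.15%) and 0 higher (1.59%). The level-adjusted median was -0.32, against 0.01 over all genes, and 19 of the 31 genes lay below 0, against 49.5%. For 20 of the 31 the ratio was smaller than the 0.66 spread between bright probe sets. Among them Kif20a, with a mean intensity of 9.67, was dimmer than the probe sets that gave this spread. In whole-population RNA, fewer dividing cells and less mitotic RNA in each cell cannot be told apart.

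**Figure D2:**
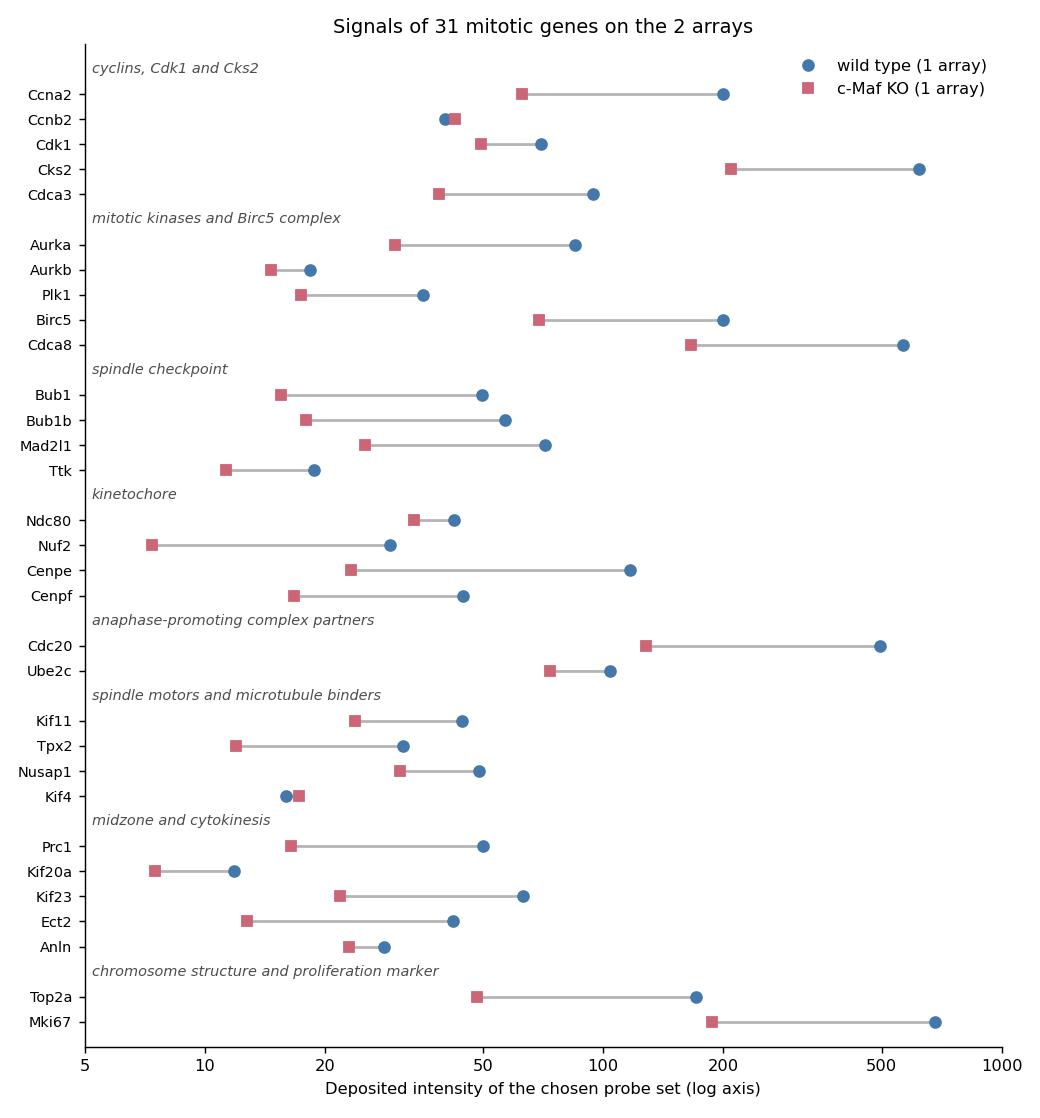
Deposited intensity on a log axis of the chosen probe set of each of 31 mitotic genes, grouped by role, on the wild-type array (circles) and that of the c-Maf KO (squares), 1 array each. The square lies to the left of the circle for 29 genes and slightly to the right for Ccnb2 and Kif4.

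The position of the group rested on which probe set stood for a gene. With the mean over all probe sets of a gene the level-adjusted median was -0.04, against 0.03 over all genes. With the brightest probe set that lacks an _x, _s or _a suffix, which left 25 of the genes, it was 0.10, against 0.02. Among 15 of the genes with at least 2 probe sets above the floor on both arrays, the 2 brightest probe sets had ratios of opposite sign in 9, or 60.0%. Over all 3489 such genes on the arrays this share was 42.9%. The median over the 15 was -0.47 for the brightest probe set and 0.32 for the next. Which probe set describes the transcript better was not tested.

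Cyclins, Cdk1 and their partners were split. Ccnb2, encoding cyclin B2, which activates Cdk1 for entry into mitosis, had an intensity of 39.97 in wild type and of 42.4 in knockout. Its level-adjusted log2 ratio was 1.23, the highest of the 31, and its deposited ratio was 0.09. Cdk1, the kinase that drives mitosis, went from 69.7 to 49.3 (level-adjusted 0.67). Both genes had a single probe set. Ccna2, encoding cyclin A2 of S phase and early mitosis, went from 199.8 to 62.4 (-0.50). A second Ccna2 probe set, however, went from 75.6 to 65.02 and had a ratio of 0.97. Cks2, a small Cdk-binding subunit, went from 621 to 209 (-0.42), and its second probe set from 126.1 to 90.5 (0.70). Cdca3, a substrate adaptor that favours mitotic entry by removal of the inhibitory kinase Wee1, went from 94.5 to 38.7 (-0.12), with a second probe set at 0.56. The remaining one was under the floor in wild type and at least 1.49-fold higher in knockout. Ccnb2 thus stood 1.73 log2 units above Ccna2 by their chosen probe sets, with the second probe set of Ccna2 between them.

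The mitotic kinases and the chromosomal passenger complex were within 2-fold. Aurka, the kinase of centrosomes and spindle poles, went from 84.7 to 30.02 (level-adjusted -0.32). Plk1, the Polo kinase of mitotic entry and centrosome maturation, went from 35.3 to 17.4 (0.10). Both ratios were smaller than the spread between probe sets. In the passenger complex, Aurkb is the kinase that corrects faulty attachments of chromosomes to the spindle, while Birc5 (survivin) and Cdca8 (borealin) target it to the centromere. Aurkb went from 18.3 to 14.6 (0.72), with a second probe set going from 11.3 to 12.2 (1.06). Birc5 went from 199.6 to 69.0 (-0.35). For Cdca8, which went from 564 to 166 (-0.62), the other probe sets went from 181.2 to 48.7 (-0.73) and from 22.2 to 6.54 (-0.80). All 3 Cdca8 probe sets were therefore lower than the median gene, while both Aurkb probe sets were higher.

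Spindle checkpoint genes encode the proteins that delay anaphase until every chromosome is attached. Bub1, a checkpoint kinase, went from 49.6 to 15.53 (level-adjusted -0.55), but a dimmer probe set went from 8.53 to 7.98 (0.78). Bub1b, encoding BubR1, went from 56.6 to 17.96 (-0.51), and its other probe sets were at 0.55 and 0.56. For Mad2l1, encoding Mad2, the effector that inhibits Cdc20, the values were 71.3 and 25.3 (-0.33). Ttk, encoding the Mps1 kinase that starts checkpoint signalling, went from 18.8 to 11.3 (0.29), and from 14.5 to 4.51 (-0.84) in its other probe set. In 3 of these 4 genes probe sets pointed to both sides of 0, and Mad2l1 had 1 probe set only.

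The 2 lowest ratios of the list were those of the kinetochore genes Cenpe and Nuf2. Cenpe encodes the kinesin that moves chromosomes to the spindle equator. Its intensity was 116.6 in wild type and 23.2 in knockout, which is 5.01-fold lower as deposited and 2.25-fold lower after level adjustment (-1.17). A second Cenpe probe set went from 56.9 to 11.1 (-1.26). Cenpe stayed at least 2-fold lower under each alternative setting tried other than a threshold of 3-fold. Other floor percentiles and a limit on brightness could not move its ratio. Neither could the rule against suffixes or the choice of probe set after normalization, which kept the same probe set. As deposited, with equal medians and with the hybridisation controls, 39.8%, 16.3% and 51.2% of all genes were also at least 2-fold lower. Nuf2 went from 29.1 to 7.37 (-0.98), just short of 2-fold, and Ndc80 from 42.2 to 33.5 (0.82). These genes encode 2 subunits of the same Ndc80 complex, which grips the ends of microtubules, and their ratios differed by 1.79 log2 units. Each had 1 probe set, so no other reading of the difference was available. Cenpf, a large protein of the outer kinetochore, went from 44.5 to 16.7 (-0.28), with 1 other probe set at 0.32. The remaining probe set went from 10.2 to 2.19, below the floor, and was at least 2.04-fold lower.

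Cdc20 and Ube2c act with the anaphase-promoting complex, the ubiquitin ligase that ends mitosis: Cdc20 activates it and Ube2c is its ubiquitin-conjugating enzyme. Cdc20 went from 495 to 127.8 (level-adjusted -0.78). A second Cdc20 probe set went from 53.4 to 39.6 (0.73), and the last reached 4.76 in knockout from a wild-type value under the floor. Ube2c, with a single probe set, went from 103.9 to 73.7 (0.68). The ratio of Ube2c was 1.46 log2 units above that of the chosen Cdc20 probe set and on the same side of 0 as that of the second.

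Spindle motors and microtubule-binding proteins were the role group with the highest median after level adjustment, 0.38 over 4 genes. Kif4, a chromosome-bound kinesin that shapes mitotic chromosomes and the central spindle, went from 15.98 to 17.2 (1.16), or 0.11 as deposited. Nusap1, a bundler of spindle microtubules, went from 48.9 to 30.9 (0.50). Kif11, the motor that separates the spindle poles, went from 44.1 to 23.8 (0.26), but its other probe sets had ratios of -0.11 and -0.65. Tpx2, which activates Aurka on the spindle, went from 31.4 to 11.9 (-0.32), and from 30.2 to 5.97 (-1.38) in its second probe set. The second Tpx2 probe set was thus at least 2-fold lower where the chosen one was not.

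Genes of the central spindle and cytokinesis were within 2-fold. Prc1, which crosslinks the antiparallel microtubules of the midzone, went from 49.8 to 16.4 (level-adjusted -0.47), and its second probe set was at -0.27. Kif23, a motor of the centralspindlin complex, went from 62.9 to 21.8 (-0.37). Ect2, the exchange factor that activates RhoA at the cleavage furrow, went from 41.97 to 12.8 (-0.61). Kif20a, which carries the passenger complex to the midzone, went from 11.8 to 7.48 (0.24). Anln, an actin-binding scaffold of the contractile ring, went from 28.2 to 23.03 (0.82), although a dim Anln probe set went from 9.21 to below the floor. The genes of this group thus lay on both sides of the median gene, 3 below 0 and 2 above.

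Top2a, encoding the topoisomerase that untangles sister chromatids, went from 171 to 48.1 (level-adjusted -0.65). Its second measured probe set gave a like ratio (-0.74), and the other was below the floor on both arrays. Mki67, encoding Ki-67, which coats mitotic chromosomes and marks cycling cells, went from 681 to 187 (-0.75). These markers were 3.56- and 3.64-fold lower as deposited, and 1.57- and 1.69-fold lower after level adjustment.

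**Figure D3:**
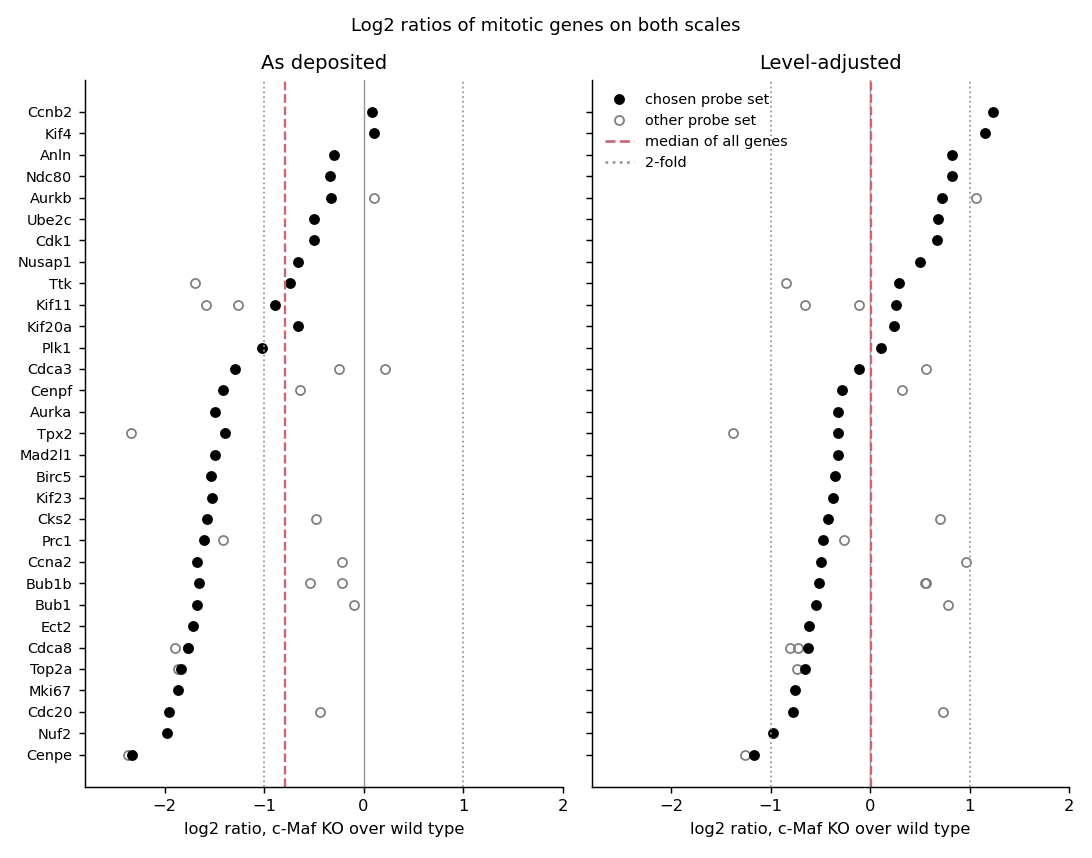
Log2 ratios of c-Maf KO over wild type for 31 mitotic genes, in order of the level-adjusted ratio, as deposited (left) and level-adjusted (right); filled points are the chosen probe sets, open points the other probe sets above the floor on both arrays, dashed lines the median of all genes and dotted lines 2-fold. The dashed line stands at -0.79 on the left and 0.01 on the right, the chosen points run from -1.17 for Cenpe to 1.23 for Ccnb2 on the right, and open points often lie across 0 from the filled point.

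Ratios moved with intensity. Across the 31 genes, mean intensity and level-adjusted ratio had a Spearman rho of -0.42, given as a description, since all points come from the same 2 arrays; over 9452 genes above the floor on both arrays it was -0.18. When all measured genes were divided into 5 equal bins by mean intensity, 21 of the mitotic genes fell into the brightest bin, with a median of -0.37 against -0.16 for the whole bin. The 9 in the next bin had a median of 0.10 against -0.06, and the remaining 1, Kif20a, lay in the middle bin. In the brightest bin 14 of the 21 were below the bin's median, and in the next 4 of the 9.

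**Figure D4:**
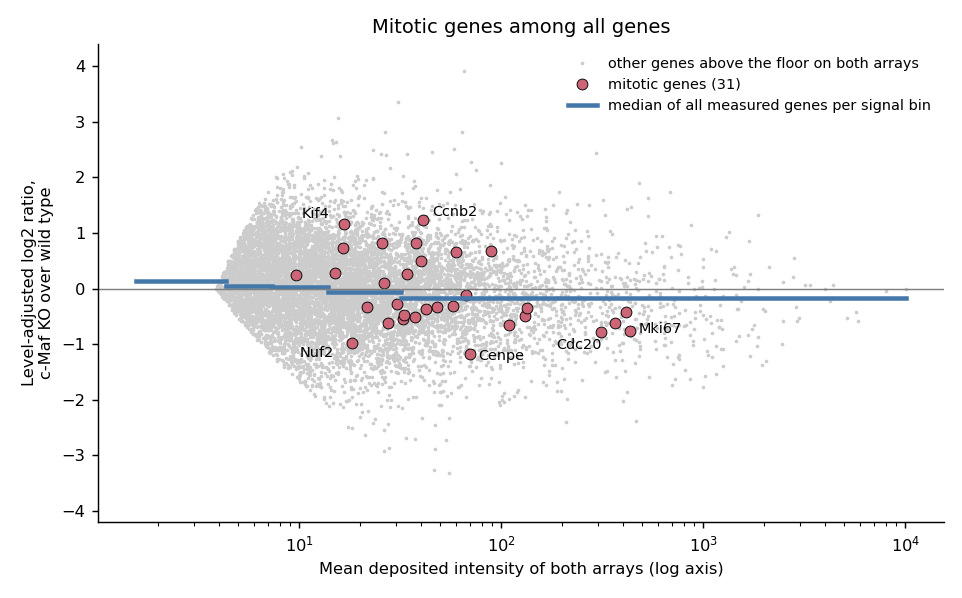
Level-adjusted log2 ratio of c-Maf KO over wild type against mean deposited intensity (log axis) for 31 mitotic genes (large points) and the other genes above the floor on both arrays (grey); horizontal bars are medians of all measured genes in 5 intensity bins. The bars fall from 0.14 to -0.16, and the mitotic genes spread to both sides of them.

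Other genes of the cell cycle had medians near that of the mitotic genes. Of 59 further mitotic genes 57 were measured, with 6 at least 2-fold lower (10.5%, against 9.05% of all genes), 0 higher (against 8.34%) and a median of -0.33. The lowest were Kifc1, a minus-end-directed kinesin (19.6 to a value under the floor, a level-adjusted drop of at least 3.67-fold), Cks1b, the paralogue of Cks2 (1719 to 319, -1.57), and Spc24, another subunit of the Ndc80 complex (94.7 to 17.4, -1.30). A second Cks1b probe set was at -0.17. The highest were the kinesin genes Kif18a (0.91) and Kif18b (0.63) and the checkpoint gene Mad1l1 (at least 1.78-fold, its wild-type value being under the floor). Kif18a was dim (7.34 to 7.67), and its second probe set went from 5.90 to below the floor. Among 36 measured replication genes 7 were at least 2-fold lower (19.4%, against 9.05%) and 2 higher (5.56%, against 8.34%), with a median of -0.34. Dtl, an adaptor that directs destruction of the licensing factor Cdt1, went from 41.97 to 4.13 (-2.41), a knockout value close to the floor. Its other measured probe sets were at -2.23, -1.21, -0.81 and -0.70. The flap endonuclease gene Fen1 went from 642 to 96.6 (-1.60), with a second probe set at -0.44. Mcm5, a subunit of the replicative helicase, went from 1173 to 236 (-1.36), while another of its probe sets was at 0.48. Pole (6.41 to 8.19, 1.20) and Gins4 (10.6 to 12.2, 1.14) were the 2 higher ones, and Gins2 was at 0.83. Pole and Gins4 were dimmer than the probe sets that gave the spread, and as deposited their ratios were 0.35 and 0.19. Both lists were drawn up with earlier results of these arrays known. Differences between the lists were not tested, since there is 1 array per genotype.

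**Figure D5:**
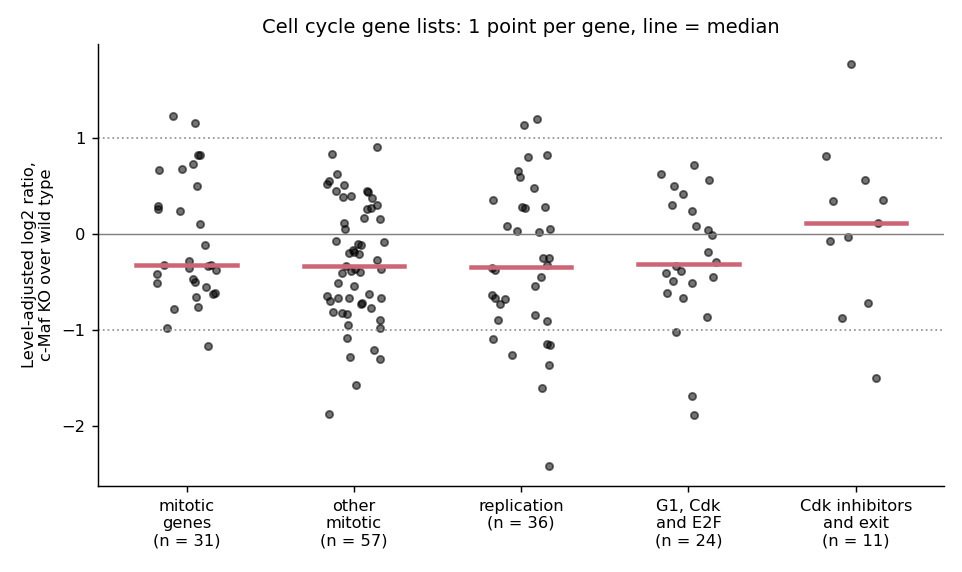
Level-adjusted log2 ratios of c-Maf KO over wild type for the measured genes of 5 cell cycle lists, 1 point per gene, with the median of each list as a horizontal line and 2-fold as dotted lines. The medians of the mitotic, further mitotic, replication and G1 lists lie between -0.34 and -0.31, and that of the Cdk inhibitors and cell cycle exit genes at 0.11.

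Transcripts of other cell types were present on both arrays, and other dividing cells of the fetal liver express mitotic genes too. The counts of markers at 2-fold given here stand beside 9.05% of all 13290 measured genes lower and 8.34% higher. For the granulocyte and myeloid progenitor list the lower share was 14.3%, and for the erythroblast list the higher share was 14.3%. After level adjustment, the summed intensity of 9 stem and progenitor markers went from 392 to 146, with 4 at least 2-fold lower and 0 higher (Myb, level-adjusted, went from 258 to 65.1). That of 14 granulocyte and myeloid progenitor markers went from 12615 to 10963, with 2 lower, 0 higher and a median ratio of -0.12; its brightest genes S100a9, S100a8 and Mpo had ratios of 0.07, 0.00 and -1.19. For 15 erythroblast markers it went from 8947 to 6639, of which Hbb-y made up 7646 and 5129, while 10 of 14 measured ratios lay above 0 (median 0.27), with 0 at least 2-fold lower and 2 higher. It went for 17 macrophage markers from 1125 to 1284, with 1 of 16 lower and 5 higher. Monocyte markers went from 2159 to 1528 (4 of 8 lower, 1 higher) and hepatoblast markers from 278 to 933 (0 of 13 lower, 11 higher). Sums for megakaryocyte (113.6 to 147.6), lymphoid (45.8 to 23.01) and endothelial and stromal markers (57.9 to 77.4) were small. Some directions depended on the scale. As deposited, the sums fell for macrophage (1636 to 886), megakaryocyte (165.3 to 100.1) and endothelial and stromal markers (78.1 to 57.0). On that scale 5 macrophage markers were at least 2-fold lower and 0 higher, and 3 hepatoblast markers were higher, where 39.8% of all genes were lower and 1.19% higher. No marker was at 0, and Cd163, Hba-a1, Fgb, Rag1, Cd3e and Pecam1 were below the floor on both arrays. The part of these cells in the ratios of the mitotic genes was not tested.

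Genes with and without a CHR form in their promoter window had overlapping ratios. The 22 measured genes with one had a median of -0.30 and ran from -1.17 (Cenpe) to 1.23 (Ccnb2). The 5 without one, Cks2, Bub1, Mad2l1, Nuf2 and Nusap1, had a median of -0.42 and ran from -0.98 (Nuf2) to 0.50 (Nusap1). Cenpe and Ccnb2, at opposite ends of the list, both held a CHR form and a CCAAT box within 50 bases of the start, as the sequences above show.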

How the data were processed

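Total RNA from sorted fetal liver macrophages, 1 sample per genotype, was labelled with biotin and hybridised to Affymetrix GeneChip arrays, per the labels' protocols. The values deposited by the authors are a linear intensity per probe set; how they were summarised or scaled was not stated in the material available here. Of 45101 probe sets, 64 were controls, 34945 had 1 gene symbol, 932 several and 9160 none in the annotation used, and 34741 were matched by Entrez identifier to GRCm38.p6.

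Intensities were quantile-normalized on the log scale over all probe sets (Python 3.11.15, numpy 2.4.6, pandas 2.3.3). Values were raised to the floor before log2 ratios were taken, so a gene below it on 1 array has only a bound. The number of arrays limits the precision. The procedure was tested on simulated data. That simulation had a uniform shift between the arrays and as many raised as lowered genes, which the real arrays need not have. The members and lists were chosen with earlier results of these data known. Named were Maf, every member, up to 3 genes at either end of each pathway list, and markers of highest intensity. Alternatives were 4 other scalings, other floors, probe set rules, a brightness limit and other thresholds.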

Additional observations from a re-analysis of the deposited data

How the results depend on the processing

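The level-adjusted median of the mitotic genes, -0.32, was -1.50 in values as deposited and -1.78 scaled to the hybridisation controls. Genes at least 2-fold lower, 1 in the main setting, numbered 20 as deposited, 9 with equal medians, 3 with centred ratios and 22 with the hybridisation controls, where 39.8%, 16.3%, 8.22% and 51.2% of all genes were lower. Genes at least 2-fold higher, 2 in the main setting, numbered 0 as deposited, 0 with equal medians, 0 with the hybridisation controls and 1 with the floor as a pseudocount, where 1.19%, 4.74%, 0.71% and 7.24% of all genes were higher. A threshold of 1.5-fold gave 7 lower and 7 higher, and one of 3-fold gave 0 and 0. With the hybridisation controls the ratio of Ccnb2 was -0.20 and that of Kif4 -0.18, on the other side of 0. Of 334 single-gene values under alternatives, 265 moved by less than the spread between bright probe sets. Among those 265, the 31 with each of the 25th and 65th percentile floors and the 30 with the brightness limit equalled the main values. With every gene above each floor on both arrays, these settings could not move a ratio. Many values under the probe set rules also equalled the main ones, because the rule kept the same probe set. With the probe set chosen after normalization only Prc1 differed, and the 12 genes with 1 probe set could not move under any such rule. The 265 are therefore not a measure of how stable the ratios were. The sign differed from the main setting in 38 of the 334, 12 of them with the hybridisation controls, 10 as deposited and 9 with the mean over probe sets. The members' median minus that of all genes ran from -0.76 with the hybridisation controls to 0.08 with probe sets lacking a suffix. Leaving out an array was not possible with 1 per genotype. No paired analysis was possible because each genotype has 1 array. Kif20a, Ttk, Aurkb and Kif4, with the lowest mean intensities of the 31, are the least precise over background.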

Other observations

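Genes that act before and after the dividing phase were listed as well. Of 24 G1 cyclins, Cdks and E2F factors, all measured, 3 were at least 2-fold lower after level adjustment (12.5%, against 9.05% of all genes), 0 were higher (against 8.34%) and the median was -0.31. The 3 were E2f8 (183 to 22.3, -1.88) and E2f7 (40.7 to 6.33, -1.69), the atypical E2F factors that repress E2F targets late in the cycle, and Cdk2, the partner of cyclins E and A (69.9 to 15.7, -1.02). Cdk4 (0.72), Mybl2, encoding B-Myb (0.62), and Tfdp1, the E2F partner DP1 (0.57), had the highest ratios.

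Among Cdk inhibitors and cell cycle exit genes, 11 of 12 were measured, with a median of 0.11. Of these, 1 was at least 2-fold lower (9.09%, against 9.05% of all genes) and 1 higher (9.09%, against 8.34%), shares near those of all genes. Cdkn1a, encoding the p53-induced inhibitor p21, went from 11.9 to 20.2 (1.77, and 0.76 as deposited), and a dimmer probe set went from below the floor to 5.86. Cdkn1b, encoding the inhibitor p27, went from 51.3 to 8.66 (-1.49). Btg1 (-0.88) and Btg2 (-0.72), antiproliferative genes, had the next lowest ratios, with a second Btg1 probe set at 0.31. Cdkn1c (0.81) and Cdkn2d (0.56) followed Cdkn1a. The 2 inhibitors of the same family, p21 and p27, were thus at opposite ends of the list, and this difference was not tested.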
